A study of Mus musculus with 168 samples.

Results

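MicroRNA levels in the cortex of 6-month-old Q175 mice were compared with those of Q20 mice of the same age. The 16 libraries compared, 8 labelled HET (Q175) and 8 labelled HET (Q20), were chosen by their titles from the 168 cortex libraries of the series. All 16 mice were heterozygous on a C57BL/6 strain and kept 1 wild-type Htt allele beside a knock-in allele with human HTT exon 1. The knock-in allele carried a CAG repeat labelled 175 in Q175 mice and 20 in Q20 mice, each group held 4 females and 4 males, and no treatment is labelled. The Q175 line arose by spontaneous expansion of the repeat in the Q140 line (Htt tm1Mfc), whereas the Q20 line carries Htt tm2Mem, so CAG length cannot be told apart from the origin of the line. Each group came from 1 line, and at most 1 animal of a sex and genotype was taken from a litter.

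MicroRNAs are short RNAs cut from hairpin precursors by Drosha and Dicer. Loaded on Argonaute, the mature strand pairs with messenger RNAs mainly through its seed, bases 2 to 8, and lowers their stability and translation. In the cortex they are known for shaping neuronal maturation, dendrites and synapses. In Huntington's disease, which is caused by a long CAG repeat in HTT, they are studied because neuronal transcription is widely disturbed. A hairpin that occurs at more than 1 place in the genome can yield the same mature microRNA from each place.

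The mature sequences below belong to the 9 microRNAs that passed the threshold in the main comparison and to relatives that share a seed or a whole mature strand with them. They are shown because the counts of some of these loci depend on whether reads can be assigned to 1 hairpin. Sequences are from RefSeq on GRCm38.p6, which held all 20 microRNAs named by the rule for named microRNAs except Mir143. They run 5′ to 3′, and capitals mark the seed.
mmu-miR-132-3p: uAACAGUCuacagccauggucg
mmu-miR-212-3p: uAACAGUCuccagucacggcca
mmu-miR-16-5p: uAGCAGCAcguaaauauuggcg
mmu-miR-195a-5p: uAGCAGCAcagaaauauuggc
mmu-miR-15a-5p: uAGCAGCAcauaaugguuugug
mmu-miR-16-1-3p: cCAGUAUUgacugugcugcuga
mmu-miR-16-2-3p: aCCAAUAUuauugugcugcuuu
mmu-miR-181a-5p: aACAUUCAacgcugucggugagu
mmu-miR-181a-1-3p: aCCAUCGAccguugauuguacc
mmu-miR-181a-2-3p: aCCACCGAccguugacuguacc
mmu-miR-26a-5p: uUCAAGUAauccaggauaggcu
mmu-miR-26a-1-3p: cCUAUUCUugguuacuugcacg
mmu-miR-26a-2-3p: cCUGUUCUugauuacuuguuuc
mmu-miR-330-3p: gCAAAGCAcagggccugcagaga
mmu-miR-667-3p: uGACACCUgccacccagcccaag
mmu-miR-3059-5p: uUUCCUCUcugccccauagggu
mmu-miR-210-3p: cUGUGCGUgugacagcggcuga
miR-132-3p and miR-212-3p share a seed, as do miR-16-5p, miR-195a-5p and miR-15a-5p. The strands miR-16-5p, miR-181a-5p and miR-26a-5p are each encoded at 2 loci (Mir16-1 and Mir16-2, Mir181a-1 and Mir181a-2, Mir26a-1 and Mir26a-2). Their opposite strands differ between the loci, and both strands of a hairpin are counted together in the deposited table.

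In counts per library, totals ranged from 3991914 over a median of 4504460 to 11646287 counts in Q175 mice. In Q20 mice they ranged from 4807104 over a median of 5297210 to 5816079. The means did not differ past the threshold (exact two-sided permutation p = 0.9997), but male M3 with 11646287 counts raised the Q175 mean. The Q175 median lay lower than every Q20 library. The 329 microRNAs of the study's list that matched by symbol held 66.2% ± 1.09 of the counts in Q175 and 66.2% ± 0.601 in Q20 libraries (SD, n = 8 each). The difference was -0.045 percentage points (exact two-sided permutation p = 0.92). The lane numbers in the library names do not overlap between the groups. Q20 libraries carry lanes 3 and 4. Q175 females F1 and F2 and male M1 have a library code V with lane numbers of 71, 68 and 66, in that order. The other Q175 libraries carry lanes 1 and 2. All other libraries have the code LB. Lane and genotype cannot be told apart at 6 months. Because the code was a term of the model, the estimates below rest on the 5 LB libraries of Q175 mice against the 8 Q20 libraries.

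Which microRNAs differ in the cortex between mice with a long and a short CAG repeat was tested over 325 microRNAs. Of these, 8 rose and 1 fell in Q175 mice at an FDR of 0.05 (edgeR quasi-likelihood F test), which is 2.46% and 0.308% of those tested. The falling microRNA was Mir132, which is induced by neuronal activity. The rising ones were Mir181a-1, Mir16-2, Mir26a-1, Mir195a, Mir330, Mir3059, Mir667 and Mir210, the last of which is known as a hypoxia-induced microRNA. An unadjusted p under 0.05 was reached by 51 microRNAs (15.7%), 37 of them higher (11.4%) and 14 lower (4.31%) in Q175 mice. The median log2 fold change over all 325 was 0.03. The 9 log2 fold changes were between 0.21 and 0.57 in size. The split of the calls moved with the scaling: 2 rose and 1 fell with RLE factors, 3 rose and 0 fell with library sizes alone, and 2 rose and 2 fell with TMM factors from all transcripts. No called microRNA changed its direction under any alternative run. With each of the 16 libraries left out in turn, Mir181a-1 and Mir16-2 passed in all 16 fits and the other 7 in 2 to 9 of them. The 9 loci lie more than 200 kb apart from each other.

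**Figure D1:**
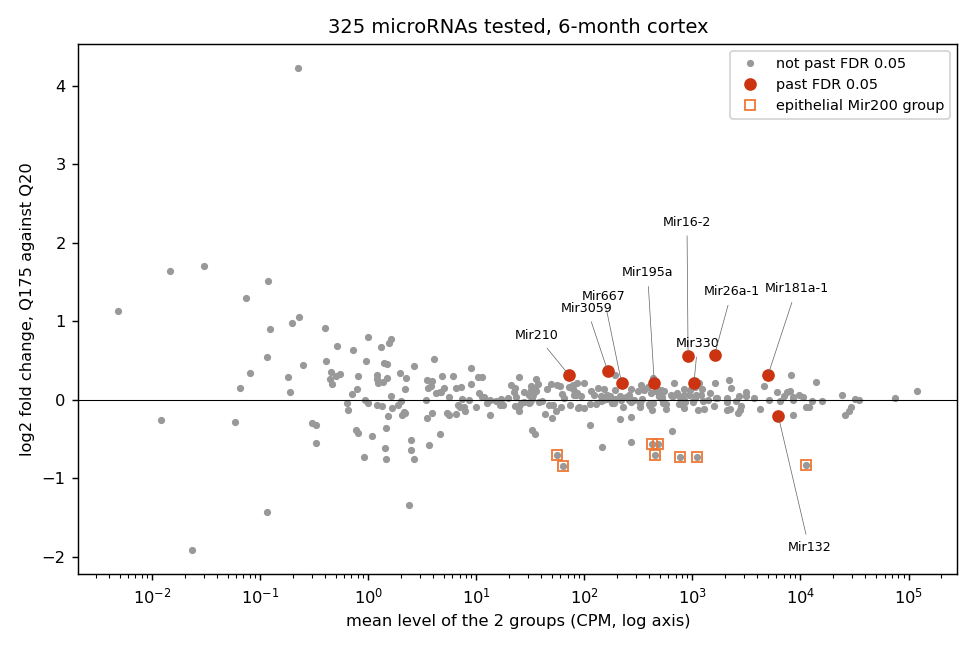
Log2 fold change of Q175 against Q20 mice for each of the 325 microRNAs tested, against the mean level of the groups in CPM (log axis). The 9 microRNAs past FDR 0.05 (red) range in level from Mir210 to Mir132, and the 8 members of the epithelial Mir200 group (squares) lie lower than 0 with none past the threshold.

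Mir132 lies at chr11:75173682-75173747 (GRCm38, plus strand) in an intron of a non-coding transcript. Its level in the 8 Q20 libraries ran from 6211 over a median of 6738 to 7146 CPM (CPM after TMM normalization), and in the 8 Q175 libraries from 5106 over 5682 to 6429 CPM. All 8 Q175 libraries lay lower than the Q20 median, and 7 of them lay lower than every Q20 library. The log2 fold change was -0.21 (SE 0.05, edgeR adjusted p = 0.0356). It was -0.23 (SE 0.04) among LB libraries alone and -0.25 (SE 0.06) when only the 3 V libraries stood for Q175. Its neighbour Mir212, transcribed from the same cluster with the same 3p seed, ran from 1241 over 1295 to 1510 CPM in Q20 and from 1054 over 1249 to 1324 CPM in Q175 mice. This difference, -0.12 on the log2 scale (SE 0.06), did not pass (edgeR adjusted p = 0.351). The third activity-regulated microRNA, Mir134, which controls dendritic spine size, went the other way, with a log2 fold change of 0.15 (SE 0.07, edgeR adjusted p = 0.252). The median of these 3 was -0.12, against 0.03 over all microRNAs tested.

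Mir667 and Mir330 were the only microRNAs of the 325 whose values in the groups did not overlap (0.615% of those tested), and both were higher in every Q175 library. Mir667, at chr12:109720006-109720097 in the imprinted Dlk1-Dio3 region, ran from 188 over 204 to 220 CPM in Q20 and from 223 over 238 to 252 CPM in Q175 mice. The log2 fold change was 0.21 (SE 0.05, edgeR adjusted p = 0.0356). The surrounding cluster, with neighbours at most 200 kb apart, held 36 tested microRNAs. Mir667 alone of these passed, 6 were higher and 0 lower at an unadjusted p under 0.05, where 11.4% and 4.31% of all microRNAs were, and their median was 0.03, as over all microRNAs. Mir330, at chr7:19181465-19181562 in an annotated exon of Eml2, ran from 921 over 961 to 1017 CPM in Q20 and from 1037 over 1096 to 1233 CPM in Q175 mice. Its log2 fold change was 0.21 (SE 0.05, edgeR adjusted p = 0.0356).

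Mir195a belongs to the Mir15/16 family, whose shared seed is known for targeting cell-cycle genes. It lies at chr11:70235042-70235135 outside other annotated genes. Its level ran from 384 over 421 to 442 CPM in Q20 and from 434 over 476 to 511 CPM in Q175 mice, with 6 of 8 Q175 libraries higher than every Q20 library. The log2 fold change was 0.21 (SE 0.05, edgeR adjusted p = 0.025). With the V libraries alone it was 0.13 (SE 0.06).

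Mir3059, in an intron of Mgat4c at chr10:101772692-101772772, ran from 122 over 152 to 161 CPM in Q20 and from 157 over 182 to 233 CPM in Q175 mice. In 7 of 8 Q175 libraries it was higher than in every Q20 library, and the highest value came from male M3, the most deeply sequenced library. The log2 fold change was 0.36 (SE 0.09, edgeR adjusted p = 0.0356) and the edgeR adjusted p was 0.126 without that library. Mir210, at chr7:141221384-141221493 on the minus strand, ran from 53.1 over 63.0 to 77.5 CPM in Q20 and from 71.1 over 77.1 to 92.9 CPM in Q175 mice. The groups overlapped, and 3 of 8 Q175 libraries lay higher than every Q20 library. Its log2 fold change was 0.32 (SE 0.08) with the adjusted p nearest to the threshold (edgeR, 0.0492). For these 6 microRNAs every deposited estimated count was a whole number.

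**Figure D2:**
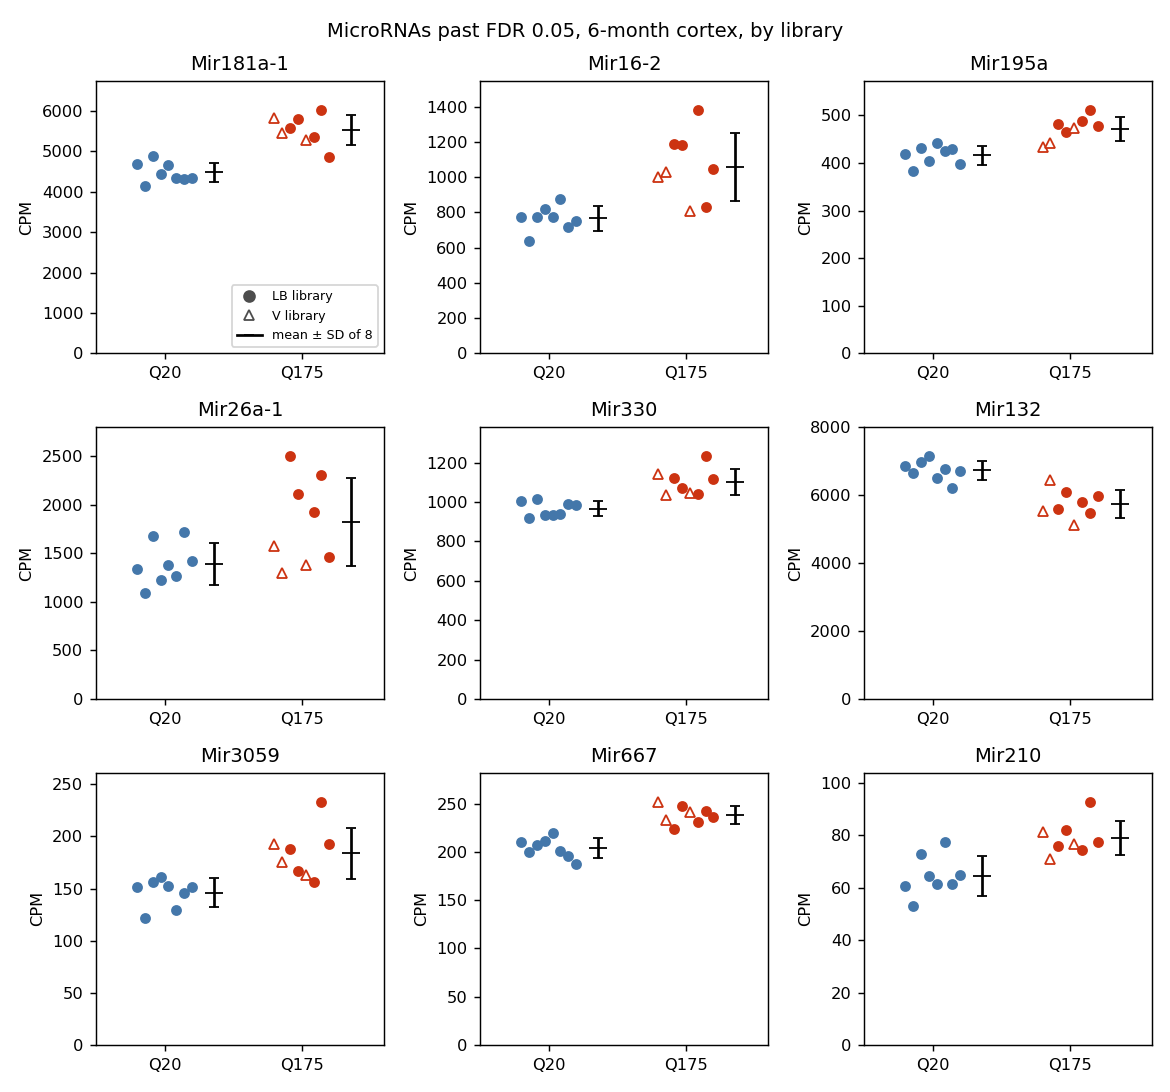
Level in CPM of each of the 9 microRNAs past FDR 0.05 in each library, with filled circles for LB and open triangles for V libraries and the mean ± SD of 8 mice beside each group. Mir667 and Mir330 do not overlap between groups, and the 3 V libraries of Q175 mice lie within the Q20 range for Mir26a-1.

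The other 3 calls, Mir181a-1, Mir16-2 and Mir26a-1, are loci that share a mature strand with another locus. All 16 of their estimated counts were fractional, as were 48.1% of all values over 0 in the table, and how the fractions arose is not given in the sources used here. In each, the called locus held the smaller part of the shared count. Mir181a-1, at chr1:137966455-137966541 in an exon of a long non-coding RNA, ran from 4133 over 4396 to 4874 CPM in Q20 and from 4865 over 5508 to 6017 CPM in Q175 mice, with 7 of 8 Q175 libraries higher than every Q20 library. Its log2 fold change was 0.31 (SE 0.06, edgeR adjusted p = 0.00566). Mir181a-2, which held most of the shared count with a mean of 119477 CPM in Q20 and 122746 CPM in Q175 mice, had a log2 fold change of 0.11 (SE 0.08, edgeR adjusted p = 0.561). Mir181a-1 made up between 3.27% and 3.96% of the sum of both in Q20 and between 3.57% and 5.61% in Q175 libraries. The sum had a log2 fold change of 0.09 (SE 0.07, edgeR adjusted p = 0.578).

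Mir16-2, in an intron of Smc4 at chr3:69009902-69009996, ran from 638 over 773.5 to 877 CPM in Q20 and from 808 over 1038 to 1381 CPM in Q175 mice. In 6 of 8 Q175 libraries it was higher than in every Q20 library, and its log2 fold change was 0.56 (SE 0.10, edgeR adjusted p = 0.00566). With the V libraries alone it was 0.31 (SE 0.09, edgeR adjusted p = 0.0985). Mir16-1 had a mean of 7795 CPM in Q20 and 8254 CPM in Q175 mice, with a log2 fold change of 0.11 (SE 0.06, edgeR adjusted p = 0.449). Mir16-2 was between 7.46% and 9.51% of the sum of both in Q20 and between 8.87% and 13.7% in Q175 libraries. The sum had a log2 fold change of 0.13 (SE 0.06, edgeR adjusted p = 0.288).

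Mir26a-1, in an intron of Ctdspl at chr9:119031796-119031885, ran from 1091 over 1355 to 1714 CPM in Q20 and from 1294 over 1749 to 2500 CPM in Q175 mice, with 4 of 8 Q175 libraries higher than every Q20 library. Its log2 fold change was 0.57 (SE 0.13, edgeR adjusted p = 0.0356). The 3 V libraries of Q175 mice stood at 1572, 1294 and 1381 CPM, inside the Q20 range. With them alone the log2 fold change was 0.05 (SE 0.13, edgeR adjusted p = 0.854), and the code term within Q175 mice was -0.55 (SE 0.17, edgeR adjusted p = 0.969). Mir26a-2, far more abundant with a mean of 75994 CPM in Q20 and 75195 CPM in Q175 mice, had a log2 fold change of 0.02 (SE 0.05, edgeR adjusted p = 0.902). The sum of both had a log2 fold change of 0.01 (SE 0.05, edgeR adjusted p = 0.95). When all loci with an identical mature strand were summed, an alternative chosen after seeing the data, 1 of 306 features passed (0.327%), namely Mir132 (edgeR adjusted p = 0.0449). The adjusted p in that fit was 0.0742 for Mir195a, Mir330, Mir3059 and Mir210 and 0.083 for Mir667.

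**Figure D3:**
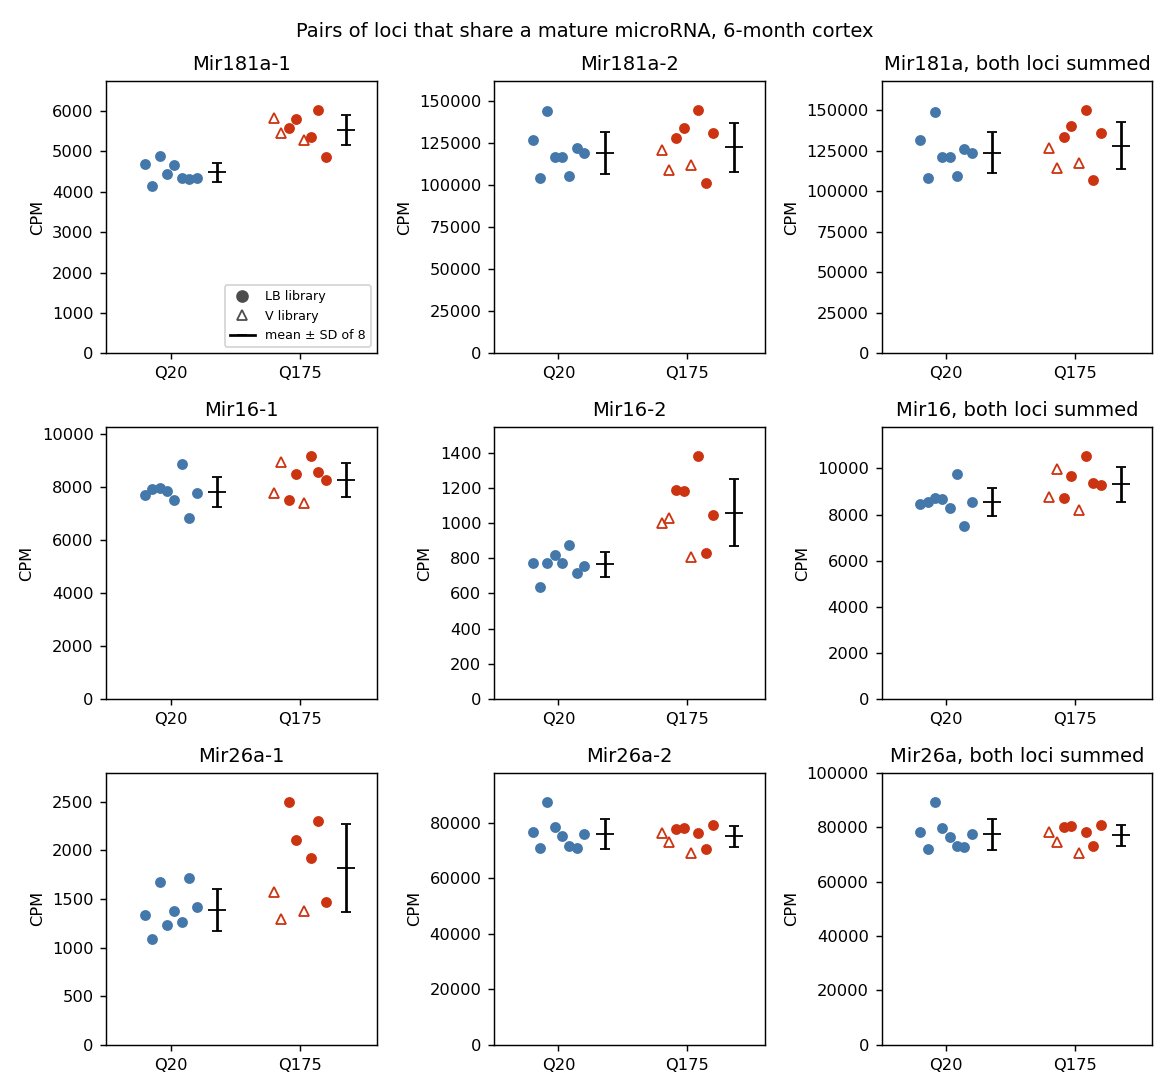
Level in CPM by library of the loci that share miR-181a-5p, miR-16-5p or miR-26a-5p, and of their sum (right column), with circles for LB, triangles for V libraries and the mean ± SD of 8 mice. Mir181a-1, Mir16-2 and Mir26a-1 are higher than the Q20 median in most Q175 libraries. Each of these loci overlaps between groups, as do the sums.

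The 2 other rising microRNAs of the 10 with the smallest p missed the threshold at an edgeR adjusted p of 0.0534. Mir125b-2, whose mature strand is abundant in neurons, ran from 6288 over 7301 to 8640 CPM in Q20 and from 7560 over 8910 to 11133 CPM in Q175 mice, with a log2 fold change of 0.31 (SE 0.09). Mir150, a microRNA of mature lymphocytes, ran from 579 over 623 to 677 CPM in Q20 and from 632 over 713.7 to 816 CPM in Q175 mice, with a log2 fold change of 0.21 (SE 0.06). In both, all 8 Q175 libraries lay higher than the Q20 median and 6 lay higher than every Q20 library. Both were picked by their p in these same libraries. Mir125b-2 shares miR-125b-5p with Mir125b-1, and all 16 estimated counts of each locus were fractional. The sum of these loci had a log2 fold change of 0.28 (SE 0.08, edgeR adjusted p = 0.083).

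Beside Mir132, the 9 microRNAs with a negative coefficient and the smallest p were Mir128-1, Mir499, Mir143, Mirlet7i, Mir208b, Mir135b, Mir148a, Mir344d-1 and Mir222. None passed, with edgeR adjusted p-values from 0.125 for Mir128-1 to 0.261 for Mir222. Mir128-1, a neuronal microRNA in an intron of R3hdm1, ran from 27408 over 28785 to 32357 CPM in Q20 and from 24484 over 27372 to 29581 CPM in Q175 mice. The coefficient was -0.15 (SE 0.05). Summed with Mir128-2, which shares miR-128-3p, it was -0.15 (SE 0.05, edgeR adjusted p = 0.083). Mirlet7i ran from 8535 over 8956 to 10065 CPM in Q20 and from 6267 over 8210 to 8928 CPM in Q175 mice, where 7 of 8 libraries lay lower than every Q20 library. The coefficient was -0.20 (SE 0.07). Mir499 in Myh7b and Mir208b in Myh7, microRNAs of muscle myosin genes, were near the limit of detection here, with means of 19.2 and 7.75 counts per library. Mir499 went from a mean of 4.44 CPM in Q20 to 2.79 CPM in Q175 mice, and Mir208b from 1.81 to 1.09 CPM. Mir135b, in an intron of Lemd1, had a log2 fold change of -0.23 (SE 0.09) and ran from 39.6 to 54.7 CPM in Q175 against 46.8 to 61.9 CPM in Q20 mice. Mir143 of vascular smooth muscle (-0.20, SE 0.07), Mir148a (-0.13, SE 0.05), Mir344d-1 (-0.22, SE 0.09) and Mir222 (-0.12, SE 0.05) had coefficients of like size. In 7 of these 9 microRNAs all 8 Q175 libraries lay lower than the Q20 median, the exceptions being Mir128-1 and Mir344d-1 with 7 of 8. The 9 were picked by their p in these same libraries, so this count is no support for them.

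Families were described by their counts and medians. Of the Mir15/16 family, 5 members were tested and all 5 coefficients were positive with a median of 0.17. Of these, 2 passed, where 2.46% of all microRNAs were called higher, and 1 of the 2, Mir16-2, did not pass when summed with Mir16-1. An unadjusted p under 0.05 was reached by 3, and Mir15a, the third of them, went from a median of 376 CPM in Q20 to 403 CPM in Q175 mice (log2 fold change 0.17, SE 0.05, edgeR adjusted p = 0.106). The Mir99/100 and Mir125 families, which are transcribed together from 3 clusters with let-7 genes, had 6 positive coefficients of 6 tested and a median of 0.20. None passed in edgeR, and 5 of the 6 had an unadjusted p under 0.05 where 11.4% of all microRNAs were higher at that level. Mir125b-1 and Mir125b-2, both among the 5, share miR-125b-5p and so stand for the same mature strand. Mir125b-2 passed with the replicate block, without the library code and in DESeq2 after replacement of outlier counts, and Mir99a without the library code. Without Q175 male M2, Mir125a, Mir125b-1 and Mir125b-2 passed in edgeR. The most abundant was Mir125a, with a median of 12789 CPM in Q20 and 14524 CPM in Q175 mice (log2 fold change 0.22, SE 0.07, edgeR adjusted p = 0.135). Mir125b-1, Mir99b and Mir100 had log2 fold changes of 0.26 (SE 0.08), 0.17 (SE 0.07) and 0.15 (SE 0.08). Of 13 tested members of the Mir17-92 cluster and its paralogs, known as a proliferation-linked cluster, 0 passed in edgeR, 3 were higher and 1 lower at an unadjusted p under 0.05, and the median was 0.19. The lower one, Mir25, passed in DESeq2 after replacement of outlier counts.

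The remaining families had 0 to 1 call each in edgeR. The Mir181 family had 1 call of 6 tested and a median of 0.08, and the Mir26 family 1 of 3 and 0.04. Of 8 let-7 genes 0 passed and the median was -0.06, but Mirlet7i passed in the edgeR fit of all transcripts and, like Mir222, in DESeq2 after replacement of outlier counts. The Mir30 family (5 tested, median 0.03), the Mir29 family (2 tested, 0.02), the cluster of Mir221 and Mir222 (2 tested, -0.13), the Mir135 family (2 tested, -0.09), the Mir10 family (2 tested, 0.05) and the microRNAs made without Drosha (4 tested, -0.09) had no call. The hypoxia list held Mir210 alone.

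The labelled tissue was checked against microRNA markers of cell types. The neuronal list, 18 of whose 19 members are in the table, summed to between 88482 and 106535 CPM in Q20 and between 88519 and 94674 CPM in Q175 libraries. Its 17 tested members included 0 calls in edgeR and had a median log2 fold change of -0.001. By DESeq2, 1 of them, Mir128-1, passed, as it did in edgeR with filterByExpr and with all transcripts. Mir9-2, a microRNA of neural progenitors and neurons, had medians of 31465 CPM in Q20 and 31376 CPM in Q175 mice. Mir128-2 and Mir138-2 had log2 fold changes of -0.09 (SE 0.06) and -0.00 (SE 0.05). Of the loci of the neuronal microRNA miR-124, named here after their values were seen, Mir124a-1 was abundant, with medians of 9429 CPM in Q20 and 8616 CPM in Q175 mice, but had no match by symbol in the study's list and was not tested. Mir124a-3, which was tested, stood at medians of 113 CPM and 112 CPM, and Mir124a-2 at 10.1 CPM in Q20 and 12.7 CPM in Q175 mice (log2 fold change 0.29, SE 0.14, edgeR adjusted p = 0.312). In bulk cortex, fewer cells of a type and less RNA per cell cannot be told apart.

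Tested markers of other cells had 0 calls in edgeR and in DESeq2, while DESeq2 after replacement of outlier counts called the vascular Mir143 and the immune Mir150, and edgeR without the library code called Mir150 and the choroid plexus Mir449a. Every list member in the table had counts in the 16 libraries. The oligodendrocyte list (3 of 4 in the table) summed to between 2791 and 3644 CPM in Q20 and between 3020 and 3409 CPM in Q175 libraries. The microglial and immune list (7 of 10) spanned 4897 to 6287 CPM in Q20 and 4842 to 6134 CPM in Q175 libraries. The vascular list (5 of 5) spanned 32073 to 40108 CPM in Q20 and 30503 to 35970 CPM in Q175 libraries, and the erythrocyte list (3 of 5) 3240 to 3800 CPM and 3256 to 4068 CPM. Among microRNAs of liver, muscle and endocrine tissue (9 of 9) the sums were 1431 to 1788 CPM in Q20 and 1374 to 1725 CPM in Q175 libraries. The medians of the tested members of these 5 lists were -0.04 (2 tested), -0.01 (5 tested), 0.06 (5 tested), -0.18 (1 tested) and -0.15 (9 tested). The erythrocyte value is that of Mir144 alone, because Mir451a and the far more abundant Mir486 were not tested.

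Epithelial microRNAs varied most between libraries. The Mir200 family and the cluster of Mir182, Mir183 and Mir96, known for epithelial and sensory cells, summed from 601 over a median of 15892 to 34460 CPM in Q20 and from 482 over 7110 to 34898 CPM in Q175 libraries, a range of 72.4-fold over the 16. Q175 libraries F4, M3 and M4 and Q20 library F2 lay under 1000 CPM and the others between 3137 and 34898 CPM, so the groups overlapped over nearly the whole range. Mir182, the most abundant of the 8, had a log2 fold change of -0.84 with an SE of 1.10 (edgeR adjusted p = 0.772). All 8 coefficients were negative with a median of -0.72, and 0 had an unadjusted p under 0.05. The first principal component of the 16 libraries, with 86.7% of the variance, followed this group. With its level as a covariate, an alternative chosen after seeing the data, 4 microRNAs passed, all among the 9 (Mir181a-1, Mir16-2, Mir195a and Mir26a-1). Mir132 then had a log2 fold change of -0.20 (SE 0.06, edgeR adjusted p = 0.118). The choroid plexus list (10 of 10 in the table, median -0.28) was high in Q20 female F2 and male M2, with 6368 and 6560 CPM against 2987 to 3873 CPM in the other 14 libraries. Its most abundant member Mir204 had a log2 fold change of -0.17 (SE 0.20). The part of either tissue in the calls beyond these values was not tested.

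**Figure D4:**
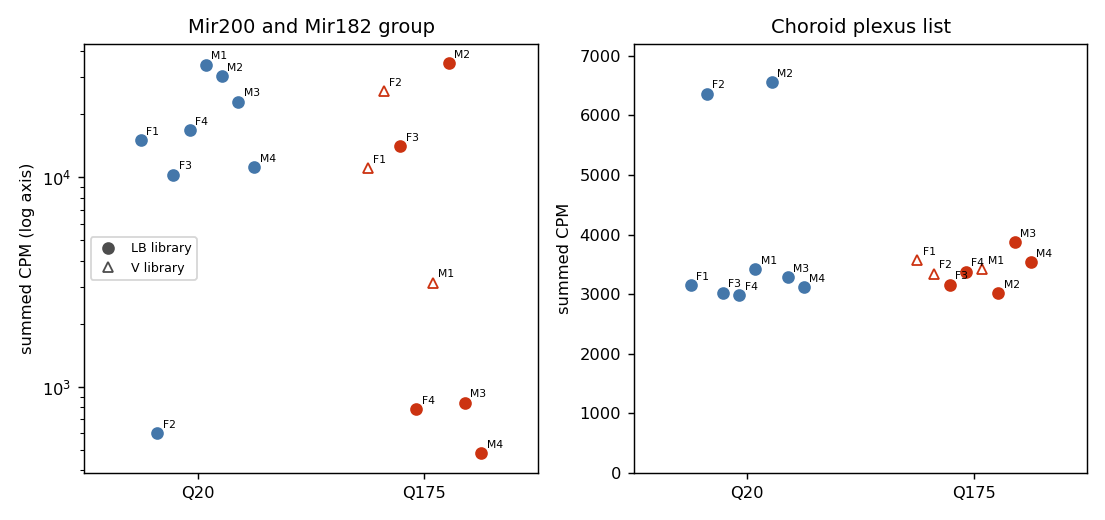
Summed CPM of the epithelial Mir200 and Mir182 group (left, log axis) and of the choroid plexus list (right) in each library, named by sex and replicate, with circles for LB and triangles for V libraries. The left group spans 482 to 34898 CPM within and across genotypes, and Q20 F2 and M2 stand apart on the right.

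Differences between the sexes and the library codes were tested directly. The interaction of sex and genotype passed for 0 of 325 microRNAs in edgeR and 0 in DESeq2, and 13 (4.0%) had an unadjusted edgeR p under 0.05. Fits of a single sex kept the code term, so their genotype estimates rest on the LB libraries of Q175 mice. These were F3 and F4 in females and M2, M3 and M4 in males. For Mir132 the log2 fold change was -0.27 (SE 0.07) in females and -0.22 (SE 0.07) in males. For Mir667 it was 0.16 (SE 0.08) and 0.20 (SE 0.08). Mir16-2 stood at 0.63 (SE 0.08) in females and 0.44 (SE 0.16) in males, with an interaction of -0.25 (SE 0.18, edgeR adjusted p = 1.0). The code term passed for 0 of 325 microRNAs in edgeR and 0 in DESeq2, with 11 (3.38%) at an unadjusted edgeR p under 0.05. Of these the smallest p belonged to Mir26a-1.

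Q175 and Q20 mice were also compared at 10 months, in other animals whose libraries share lanes 6, 7 and 8 between the groups and all carry the code LB. At that age 29 of 326 microRNAs passed, 12 higher (3.68%) and 17 lower (5.21%), and 78 (23.9%) had an unadjusted p under 0.05. Mir132 then had a log2 fold change of -0.32 (SE 0.07, edgeR adjusted p = 0.00737) and Mir212 of -0.34 (SE 0.05, edgeR adjusted p = 0.000393). Mir667 stood at 0.33 (SE 0.06), Mir330 at 0.20 (SE 0.05), Mir195a at 0.28 (SE 0.08), Mir3059 at 0.29 (SE 0.08) and Mir181a-1 at 0.21 (SE 0.05), each past FDR 0.05. Mir210 had 0.27 (SE 0.09, edgeR adjusted p = 0.071). Mir16-2 (0.07, SE 0.13, edgeR adjusted p = 0.769) and Mir26a-1 (-0.09, SE 0.11, edgeR adjusted p = 0.641) did not pass at 10 months, whereas Mir181a-2 (0.26, SE 0.06) and Mir16-1 (0.32, SE 0.08) did. Mir135b, at -0.23 (SE 0.09) at 6 months, stood at -0.62 (SE 0.07, edgeR adjusted p = 1.05e-05). The interaction of age and genotype passed for 0 of 326 microRNAs in edgeR and 0 in DESeq2, and 29 (8.9%) had an unadjusted edgeR p under 0.05. It was -0.59 for Mir26a-1 (SE 0.17, edgeR adjusted p = 0.196) and -0.31 for Mir135b (SE 0.11, edgeR adjusted p = 0.45).

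The same Q175 libraries were set against those of 8 Q80 mice of 6 months. These mice are heterozygous for an allele with a repeat labelled 80. Both groups have LB libraries in lanes 1 and 2 and both library codes. The lanes were unevenly shared: lane 1 held 4 Q175 libraries and 1 Q80 library, and lane 2 held 1 and 5. The V libraries share no lane number (66, 68 and 71 against 67 and 70), and lane was not a model term. This comparison shares the Q175 mice with the main comparison and is no independent test of them. It called 9 of 325 microRNAs (2.77%), 4 higher (1.23%) and 5 lower (1.54%), with 50 (15.4%) at an unadjusted p under 0.05. Mir132 was at -0.29 (SE 0.07, edgeR adjusted p = 0.0232), Mir212 at -0.19 (SE 0.05, edgeR adjusted p = 0.0434), Mir181a-1 at 0.25 (SE 0.04, edgeR adjusted p = 0.00448) and Mir195a at 0.21 (SE 0.04, edgeR adjusted p = 0.014). Of the 9 calls against Q20, the other 6 had a positive coefficient without passing, from 0.11 for Mir667 (SE 0.04, edgeR adjusted p = 0.223) to 0.21 for Mir3059 (SE 0.08, edgeR adjusted p = 0.175). Mir16-2 stood at 0.21 (SE 0.10) and Mir26a-1 at 0.15 (SE 0.13).

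**Figure D5:**
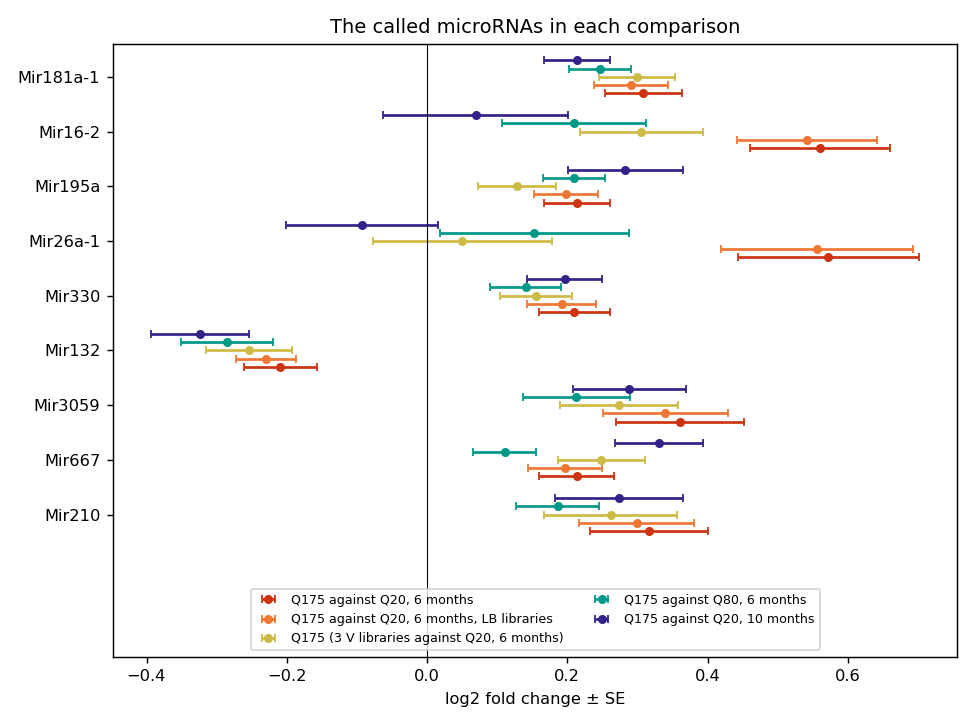
Log2 fold change ± SE of the 9 microRNAs past FDR 0.05 in Q175 against Q20 mice at 6 months (all, LB only, and only the 3 V libraries for Q175), in Q175 against Q80 mice at 6 months and in Q175 against Q20 mice at 10 months. Mir132 is lower than 0 in all 5 estimates, and Mir26a-1 runs from 0.57 at 6 months to -0.09 at 10 months. The 6-month estimates share libraries and are not independent, and with the code term the one labelled all rests on LB libraries.

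Transcripts without a match by symbol in the study's microRNA list were tested too. Whether that list holds them under other symbols was not checked. In a fit of all 1099 transcripts with at least 1 count, 7 passed (0.637%), 3 higher and 4 lower. Besides Mir132, Mir128-1, Mirlet7i, Mir181a-1 and Mir16-2, these were Mir21a and a transcript with no name in the annotation. Mir21a, a microRNA known from reactive glia and tumours that stands on the microglial and immune list, fell by 0.23 on the log2 scale (SE 0.05, edgeR adjusted p = 0.0119), from 1904 over 2107 to 2206 CPM in Q20 to 1673 over 1849 to 1943 CPM in Q175 mice. The unnamed transcript ENSMUST00000175336 rose by 0.25 (SE 0.05, edgeR adjusted p = 0.0144). It ran from 3919 over 4668 to 4858 CPM in Q20 and from 5013 over 5562 to 5949 CPM in Q175 mice. Unnamed transcripts as a whole held 0.621% ± 0.0633 of the counts in Q175 and 0.502% ± 0.0337 in Q20 libraries (SD, n = 8 each, exact two-sided permutation p = 0.000155). ENSMUST00000175336 made up most of this class, with means of 5472 CPM in Q175 and 4552 CPM in Q20 mice. The test of the class is therefore no separate support for it. Mir21a and ENSMUST00000175336 were named after their values were seen.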

How the data were processed

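Small RNA of mouse cortex was sequenced as strand-specific single-end reads, and per the labels CASAVA 1.8.2 was among the processing tools. After clipping, the authors used STAR to align reads to mm10 (GRCm38) and deposited a table of estimated counts for 1626 Ensembl transcripts, without normalization; the methods name HTSeq. A deposited FPKM table was not used. CPM are counts scaled to library size and TMM factor. Estimated counts were rounded to whole numbers. GENCODE M21 named 1228 transcripts, and 329 of the study's 480 microRNAs matched by symbol. Library totals over all transcripts were used, so depth limits precision most for microRNAs with few counts, and intervals cover only the spread between mice.

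Differences were tested with edgeR 4.0.16 (R 4.3.3), using TMM factors, terms for sex and library code, and its robust quasi-likelihood F test (two-sided), over listed microRNAs with at least 1 count in the 16 libraries. P-values were adjusted by Benjamini-Hochberg and called at an FDR of 0.05; SEs came from the coefficient and its F statistic. Library measures were compared by exact permutation (scipy). Named microRNAs were all calls, the 10 rising and 10 falling with the smallest p, and up to 4 abundant members of each list. The 2 groups, the lists and the tests were chosen with earlier results of these data known. Libraries were grouped by their titles, and no 2 libraries of the same 6-month group, Q175 or Q20, agreed within sampling noise. Pairs across the groups were not compared in this way. In the 10-month groups, the sex of 1 mouse was taken from its cage. Alternatives were RLE factors, library sizes alone, filterByExpr, DESeq2 1.42.0 (also after the study's replacement of outlier counts, 63 values here), all transcripts, other code handling, unrounded counts, each library left out and a replicate block. The code was tested on simulated data. WT mice of 6 months were not analysed here.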

Additional observations from a re-analysis of the deposited data

Results flagged for a closer look

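In each group of 8 mice, the highest and lowest library was compared with its nearest neighbour for the named microRNAs, the marker lists and the library measures (60 groups). By chance about 1 in 20 such groups is flagged; here 3 were, and all 3 concern male M3 of the Q175 mice. Its total of 11646287 counts stood far over the next of 4995130. Mir3059 was highest in it, with 233 CPM against 193 CPM in the next library. The oligodendrocyte list was lowest in it, with a summed 3020 CPM against 3238 CPM in the next. Without this library 3 microRNAs passed FDR 0.05 in Q175 against Q20 mice (edgeR), Mir181a-1, Mir16-2 and Mir132, with 51 at an unadjusted p under 0.05.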

How the results depend on the processing

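The count of 9 calls was within 1.5 times under filterByExpr (8), DESeq2 (10) and unrounded counts (9). With all 1099 transcripts tested it was 7, of which 3 were among the 9, and the split was 3 higher and 4 lower. It was 3 with RLE factors, 3 with library sizes alone, 15 without the library code, 4 with LB libraries only and 18 after replacement of outlier counts with DESeq2. All 4 with LB libraries only were among the 9. With alternatives chosen after seeing the data it was 4 with V libraries only and 4 with TMM factors from all transcripts. Of the 4 with V libraries only, Mir181a-1 alone was among the 9, and the others were Mir149, Mir328 and Mir676. Others of this kind gave 4 with the Mir200 level as a covariate, 1 with shared loci summed, 1 in females and 0 in males. In males 37 had an unadjusted p under 0.05, and no other tool was run on males. Leaving out 1 library gave 2 to 18 calls: 2 without Q175 F3 or F4 or Q20 F4 or M4, 3 without Q175 M1 or M3 or Q20 F1, F2 or M2, 4 without Q175 F2 or M4 or Q20 M1, and 18 without Q175 M2. Mir181a-1 and Mir16-2 passed in all 16 of these fits, Mir132 in 9, Mir195a in 7, Mir26a-1 in 5, Mir330 in 4, Mir3059 in 3, and Mir667 and Mir210 in 2. A replicate block of title numbers gave 7 calls; same-numbered mice correlated between -0.91 and 0.77 and none best with its own number, so the numbers do not pair mice. Without the library code 1 microRNA passed the interaction of age and genotype, and with library sizes alone 3 passed against Q80. Counts at 10 months and of the sex and code terms did not move past 1.5 times. The difference in the share of the matched microRNAs was larger among LB libraries, at -0.211 percentage points (exact two-sided permutation p = 0.67). Over all 16 libraries it was -0.045 (exact two-sided permutation p = 0.92). Depth limits microRNAs of a few CPM.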
